A study of Mus musculus with 24 samples.

Results

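The Rab genes encode small GTPases that mark the membranes of the secretory and endocytic pathways. Protein-coding genes whose mouse symbol is Rab, a number and at most a letter and a digit were taken from the count tables of sorted Atoh1-expressing cells. Of 45513 genes listed per library, 59 had such a symbol, and the 52 with a mean of at least 10 raw counts over the 24 libraries are described here. RNA came from live cells positive for EpCAM, an epithelial surface protein, and for the tdTomato reporter, sorted from crypt-enriched fractions of the proximal small intestine (SI) and the colon. The mice carried Atoh1(WT)CreERT2 R26RtdTom (WT) or Atoh1(9S/T-A)CreERT2 R26RtdTom (9S/T-A), both homozygous at Atoh1, and in the second 9 serine or threonine sites of ATOH1 were replaced by alanine. All of them, WT included, carried the Cre knock-in at the Atoh1 locus, each line derived from embryonic stem cell clones, and received a single intraperitoneal dose of 3 mg tamoxifen, after which the cells were taken a day later. CreERT2 is driven by Atoh1 itself, so the sort marks cells that expressed this gene when tamoxifen was given, together with any progeny formed since. The 4 groups, SI and colon of either genotype, hold 6 libraries each, which carry the numbers 2 to 7, of which 3 are female and 3 male.

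A Rab protein switches between a GTP-bound form on the membrane and a GDP-bound form in the cytosol. Exchange factors turn it on, GTPase-activating proteins turn it off, and in the active state it recruits effectors that move, tether or fuse vesicles. Goblet and Paneth cells, the ATOH1-dependent secretory cells of the crypt, carry mucin or antimicrobial proteins from the endoplasmic reticulum through the Golgi into large granules, and Rab3 and Rab27 proteins are best known for bringing such granules to the apical membrane. Rab11 family proteins and RAB8A guide apical recycling and delivery in epithelium, RAB5 and RAB7 define early and late endosomes, and RAB32 and RAB38 serve lysosome-related organelles.

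Libraries held between 35.97 M and 65.8 M counts, and the Rab genes took 0.280% to 0.431% of them. Levels are given as CPM, with library sizes scaled by TMM factors over all 24 libraries, and as CPM per kb of exon where genes are compared with each other. A gene is called different where its Benjamini-Hochberg adjusted p over all genes tested in the edgeR quasi-likelihood test is under 0.05, and each log2 fold change is given ± its SE. Goblet markers, 8 genes that include the mucin Muc2, took 25.9% to 35.1% of all counts in SI and 5.10% to 10% in colon. Scaling by plain library totals instead moved the median colon-to-SI log2 fold change of all genes from 0.03 to 0.74 in WT and from 0.04 to 0.85 in 9S/T-A, so differences between tissues are given relative to the typical gene. All 8 goblet and all 7 Paneth markers had a mean of 1 CPM or more in every group, and Pdgfra, a defining marker of fibroblasts, was under 0.1 CPM in all 4 groups. The sum of 8 leukocyte markers was 17.3 to 28.9 CPM in SI and 30.7 to 41.2 in colon of WT, against 11.5 to 28.7 and 27.2 to 36.8 of 9S/T-A, and that of 7 stromal markers at most 18.8 CPM in any library. In bulk RNA, fewer cells of a type and less RNA per cell cannot be told apart. Library 7 stood apart in colon, with the lowest level of its group for 31 of 52 Rab genes in WT and 31 in 9S/T-A, and results that rest on it are given without it as well.

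Promoter sequences are shown for 4 genes on which the results turn, namely the Rab gene that differed between genotypes (Rab2b), 2 granule genes that differed between tissues in opposite directions (Rab27a and Rab3d), and a gene of lysosome-related organelles that was higher in colon (Rab32). Each runs from 250 bases before to 50 bases after the annotated start in RefSeq (GRCm38.p6), 5′ to 3′ on the gene's strand. The upstream of 2 annotated starts is shown for Rab27a. Capitals mark the E-box CANNTG, the 6-letter word that basic helix-loop-helix factors such as ATOH1 bind.
Rab2b, chr14:52279346-52279645, minus strand: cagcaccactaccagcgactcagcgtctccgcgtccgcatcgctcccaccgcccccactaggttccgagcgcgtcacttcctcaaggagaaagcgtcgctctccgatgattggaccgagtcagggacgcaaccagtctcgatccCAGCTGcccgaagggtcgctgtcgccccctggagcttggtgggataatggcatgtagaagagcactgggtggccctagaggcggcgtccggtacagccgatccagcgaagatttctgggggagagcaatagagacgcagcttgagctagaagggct
Rab27a, chr9:73044560-73044859, plus strand: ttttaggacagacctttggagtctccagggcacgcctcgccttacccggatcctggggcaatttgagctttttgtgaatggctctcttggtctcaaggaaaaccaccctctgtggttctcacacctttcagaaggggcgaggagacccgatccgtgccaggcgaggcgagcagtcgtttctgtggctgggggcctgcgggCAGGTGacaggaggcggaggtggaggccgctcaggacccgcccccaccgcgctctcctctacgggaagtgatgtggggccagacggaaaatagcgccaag
Rab3d, chr9:21918134-21918433, minus strand: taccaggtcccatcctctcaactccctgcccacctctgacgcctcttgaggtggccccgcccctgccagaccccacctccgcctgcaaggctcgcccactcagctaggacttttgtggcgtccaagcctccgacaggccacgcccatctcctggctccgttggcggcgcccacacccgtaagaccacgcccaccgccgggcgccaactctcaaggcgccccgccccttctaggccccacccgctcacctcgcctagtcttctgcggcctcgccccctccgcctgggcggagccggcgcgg
Rab32, chr10:10558158-10558457, minus strand: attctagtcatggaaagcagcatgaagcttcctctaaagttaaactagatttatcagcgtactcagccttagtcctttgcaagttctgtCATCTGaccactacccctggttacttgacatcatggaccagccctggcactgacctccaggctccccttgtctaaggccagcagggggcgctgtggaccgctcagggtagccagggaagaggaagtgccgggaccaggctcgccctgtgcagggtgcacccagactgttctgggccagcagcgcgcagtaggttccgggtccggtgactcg
The Rab2b, Rab27a and Rab32 windows each held 1 E-box and the Rab3d window held 0, and the word in Rab2b was CAGCTG. The window at the other Rab27a start, which is not shown, held 6 E-boxes, of which 1 was CAGCTG. As a pattern CANNTG reads the same on both strands, and CAGCTG is a form of it that does too. Over all 32851 mouse promoters of this length, 72.3% held CANNTG and 16.3% held CAGCTG. Of the 56 promoters listed for 44 of the Rab genes, 38 (67.9%) held CANNTG and 12 (21.4%) held CAGCTG. A match is a word in a window, not a bound site.

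The highest Rab levels belonged in SI to genes of the ER-to-Golgi route, the granules and the early endosome, and in colon to an apical recycling gene, a granule gene and the same ER-to-Golgi genes. In WT SI the first 5 genes by CPM per kb were Rab1a at 85.5 ± 8.56, Rab3d at 79.8 ± 3.55, Rab2a at 78.1 ± 7.44, Rab5c at 76.5 ± 4.09 and Rab1b at 76.2 ± 5.67 (mean ± SD, n = 6). Each neighbouring pair in this order overlapped in range. Rab1a and Rab1b drive the step from the ER to the Golgi, Rab2a acts between the Golgi and the ER, and Rab5c works on early endosomes. In 9S/T-A SI, Rab27a at 84.4 ± 11.04 CPM per kb stood in place of Rab1b among the first 5. In WT colon the leading gene was Rab25, an epithelial member of the Rab11 family, at 119 ± 14.3 CPM per kb, followed by Rab3d at 105 ± 13.04, Rab1b at 84.6 ± 11.5, Rab2a at 78.8 ± 10.4 and Rab1a at 67.3 ± 8.66. The same 5 genes in the same order led in 9S/T-A colon, from 119.8 ± 15.4 CPM per kb for Rab25 to 72.7 ± 11.9 for Rab1a. Here too each neighbouring pair overlapped in range. At the other end, Rab38 had the lowest mean CPM per kb in both SI groups, where its libraries held 0 or 1 count each, and Rab39b the lowest in both colon groups.

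**Figure D1:**
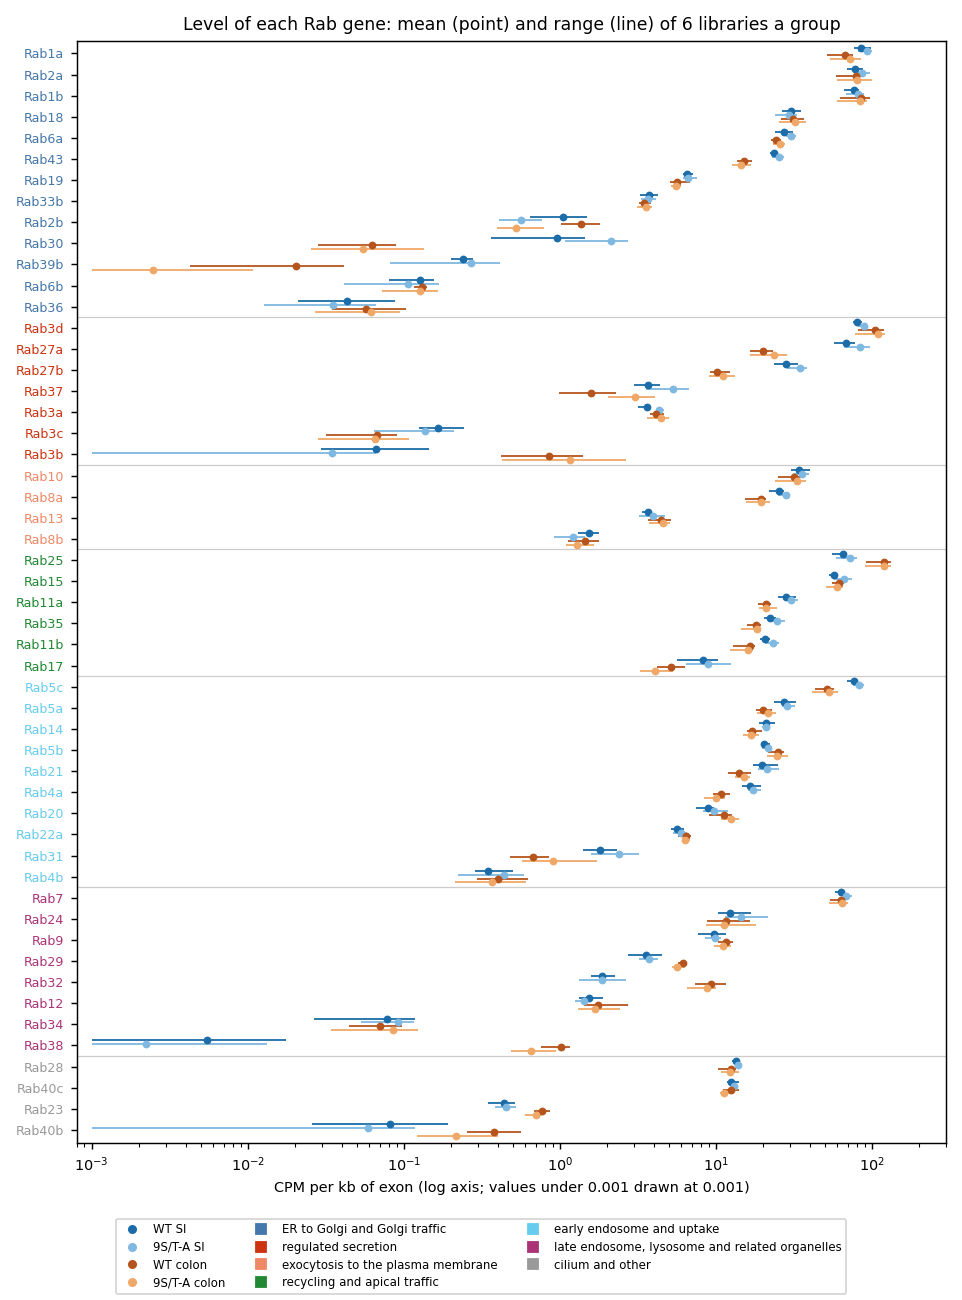
Mean (point) and range (line) of the level of each of the 52 Rab genes in CPM per kb of exon on a log axis, for the 4 groups of 6 libraries, with gene names grouped and coloured by role. Most genes sit at about the same level in the 4 groups, and Rab38, Rab3b, Rab30, Rab39b and Rab40b show the widest gaps between SI (blue) and colon (orange).

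The share that each role takes of the summed Rab level does not depend on how libraries are scaled, and it is given here for the 24 libraries. Summed over the 52 genes, the level was 1099 ± 60.3 CPM per kb in WT SI, 1209.7 ± 51.4 in 9S/T-A SI, 1042 ± 93.1 in WT colon and 1058 ± 115 in 9S/T-A colon (SD, n = 6). The 6 genes of recycling and apical traffic made up 18.3% ± 0.410 of this sum in WT SI and 23.2% ± 0.659 in WT colon, with 18.6% ± 0.383 and 22.6% ± 0.818 in 9S/T-A. The 7 genes of regulated secretion went the other way, from 16.7% ± 0.897 to 13.6% ± 0.416 in WT and from 17.96% ± 1.13 to 14.4% ± 0.669 in 9S/T-A. Shares of the 2 tissues did not overlap in either genotype for these roles, and the same held for the early endosome genes (17.5% to 18.3% in WT SI and 14.8% to 15.9% in WT colon) and the late endosome genes (7.96% to 8.91% and 9.62% to 11.4%). The 13 Golgi genes held 30.3% ± 0.744 in WT SI and 29.9% ± 0.878 in WT colon. Between genotypes the ranges of the shares overlapped for each role in both tissues. No test was made on these shares.

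**Figure D2:**
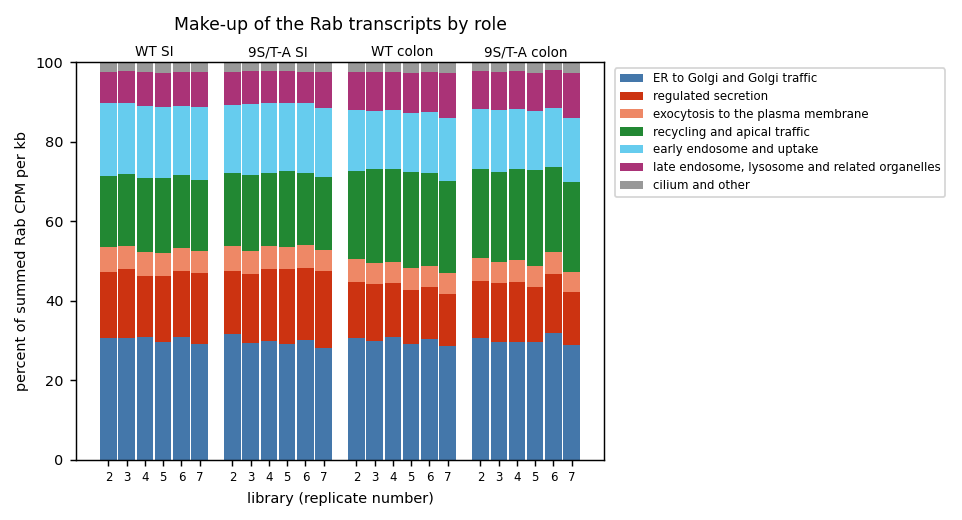
Share of the summed Rab level (CPM per kb) taken by each role, as a stacked bar for each of the 24 libraries in their 4 groups, in percent. The recycling and apical band is wider in all colon bars than in all SI bars, and the regulated secretion band is narrower.

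Colon and SI were compared within each genotype. In WT, 33 of 52 Rab genes were called, with 12 at a higher level in colon and 21 in SI, a share of 63.5% beside 63.6% of all 16979 genes tested. In 9S/T-A, 32 were called, 9 of them toward colon and 23 toward SI, or 61.5% beside 60.9% of 16938 genes. The share of Rab genes called was thus near that of all genes. By direction, 33.1% of all genes were higher in colon and 30.4% higher in SI in WT, with 32.9% and 28.0% in 9S/T-A. The median log2 fold change of the Rab genes was -0.10 in WT and -0.16 in 9S/T-A, against 0.03 and 0.04 for all genes. Of the Rab genes, 30 were called in both genotypes, all in the same direction, with 9 higher in colon and 21 higher in SI. 3 genes (Rab5b, Rab13 and Rab22a) were called in WT alone and 2 (Rab28 and Rab40c) in 9S/T-A alone, chosen for naming after their values were seen, and 0 Rab genes were called in the test of the difference between the contrasts given further on. Across the 52 genes the fold changes of the 2 genotypes, which share no library, had a Pearson r of 0.974, near the 0.969 over all 16670 genes tested in both.

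The direction of the smaller differences depended on the scaling. With plain library totals the split was 40 higher in colon and 7 higher in SI in WT, and 38 and 5 in 9S/T-A. Of all genes tested, 12241 were then higher in colon and 1903 higher in SI in WT, and 12546 and 1653 in 9S/T-A. The part of the called genes that was higher in colon was thus near that of all genes. It was 85.1% for Rab genes beside 86.5% in WT, and 88.4% beside 88.4% in 9S/T-A. The 12 genes higher in colon in WT kept that call, but plain totals move genes toward colon, so this was no check of them. Of the 21 higher in SI, 7 kept the call (Rab27a, Rab27b, Rab30, Rab31, Rab37, Rab39b and Rab3c). Another 10 were called higher in colon, among them Rab1a, Rab8a and Rab11a. In 9S/T-A, 5 of 23 kept the call, which were the same genes without Rab37 and Rab3c. Marker genes moved with these contrasts, and for each of the 7 lists given here the SI sums lay above the colon sums in WT. The sum of the 8 goblet markers was 315000 to 443040 CPM in SI and 35971 to 56781 in colon of WT, against 320250 to 507940 and 36774 to 82291 of 9S/T-A. The 7 Paneth markers summed to 60089 to 101740 CPM in SI and 181 to 952 in colon of WT, against 48620 to 76170 and 198 to 1480.1 of 9S/T-A. Among them is Ang4, a protein of Paneth and goblet cells, so the colon sums do not stand for Paneth cells alone. The 9 enteroendocrine markers summed to 278 to 548 CPM in SI and 61.6 to 121 in colon of WT, against 314 to 611 and 56.8 to 116 of 9S/T-A, with Gip under 0.1 CPM in colon, and the 7 tuft markers to 64.7 to 137 CPM in SI and 17.4 to 47.3 in colon of WT, against 21.8 to 114 and 11.1 to 35.8 of 9S/T-A, with Il25 under 0.1 CPM in all groups but WT SI. The 9 markers of absorptive cells summed to 1803 to 4537 CPM in SI and 383 to 717 in colon of WT, against 3093 to 5589.5 and 415 to 719 of 9S/T-A. The 5 stem cell markers summed to 770.1 to 1134 CPM in SI and 63.7 to 83.1 in colon of WT, against 576 to 1075 and 54.3 to 83.2 of 9S/T-A, and the 6 markers of cycling cells to 208 to 290.4 CPM in SI and 78.1 to 147 in colon of WT, against 159 to 249.9 and 87.2 to 175 of 9S/T-A. The part of these cell types in the Rab differences was not tested.

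**Figure D3:**
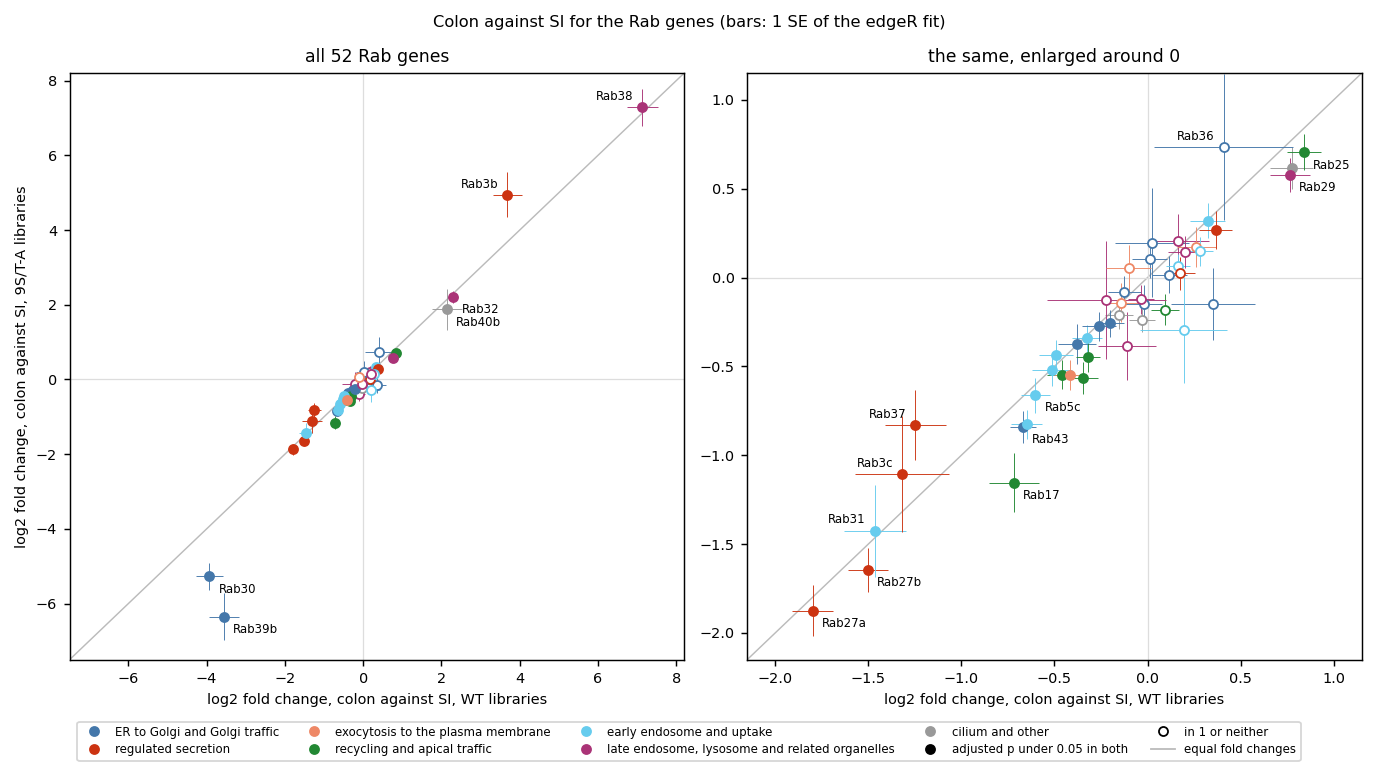
Log2 fold change of colon against SI in the WT libraries (x) and in the 9S/T-A libraries (y) for the 52 Rab genes, with bars of 1 SE and colours by role, where filled points were called in both genotypes. The right panel enlarges the region around 0. Points lie along the line of equal fold changes, with Rab38 and Rab3b at the colon end and Rab30 and Rab39b at the SI end.

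Among the 7 granule genes of regulated secretion, 4 were higher in SI and 2 higher in colon in each genotype, and Rab3a was not called. Rab27a (chromosome 9, 73044854 to 73097629, GRCm38), which docks granules at the plasma membrane, ran from 223 to 300.2 with a median of 269.8 CPM in WT SI and from 64.6 to 90.5 with a median of 78.9 in WT colon. All SI libraries lay above all colon libraries, with a log2 fold change of -1.80 ± 0.11 (adjusted p = 1.51e-09). The 9S/T-A groups gave 256 to 377 with a median of 340.5 CPM in SI, 64.2 to 110.0 with a median of 92.2 in colon and a log2 fold change of -1.88 ± 0.14 (adjusted p = 2.42e-08), again without overlap. Its paralog Rab27b ran from 252 to 361 with a median of 299.7 CPM in WT SI and from 98.4 to 132 with a median of 106 in WT colon. Rab27b in 9S/T-A ran from 306 to 411 with a median of 368 CPM in SI and from 96.9 to 142 with a median of 121 in colon. The tissues were apart in both genotypes, and the log2 fold change was -1.50 ± 0.11 (adjusted p = 7.37e-09) in WT and -1.65 ± 0.12 (adjusted p = 1.92e-08) in 9S/T-A.

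Rab3d (chromosome 9, 21907491 to 21918192), the Rab3 form of exocrine granules, ran from 319 to 360.1 with a median of 333 CPM in WT SI and from 341 to 504 with a median of 454 in WT colon. Only the lowest colon library, number 7, fell inside the SI range, and the log2 fold change was 0.37 ± 0.09 (adjusted p = 0.00221). In 9S/T-A, where SI ran from 344 to 394 with a median of 379.7 CPM and colon from 329 to 508 with a median of 489.9, it was 0.27 ± 0.11 (adjusted p = 0.0427), a call kept in 5 of the 12 fits that left out 1 library. Library 7 of 9S/T-A colon lay below all SI libraries, and without library 7 of every group the log2 fold changes were 0.42 (adjusted p = 9.08e-05) in WT and 0.33 (adjusted p = 0.00235) in 9S/T-A. Rab3d took 43.6% ± 2.82 of the summed CPM per kb of the 7 granule genes in WT SI and 74.0% ± 2.03 in WT colon, while Rab27a went from 37.0% ± 2.25 to 14.1% ± 1.27. In 9S/T-A the Rab3d share was 41.0% ± 2.75 in SI and 71.5% ± 1.94 in colon. The shares of the tissues did not overlap.

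Rab3b (chromosome 4, 108879063 to 108943324), a form known from neurons and endocrine cells, was a low-level gene that was higher in colon. It ran from 0.103 to 0.511 with a median of 0.198 CPM in WT SI and from 1.47 to 4.95 with a median of 2.83 in WT colon, and from 0 to 0.236 with a median of 0.124 and 1.49 to 9.42 with a median of 3.61 in 9S/T-A. No SI library reached a colon library, and the log2 fold changes were 3.68 ± 0.37 (adjusted p = 4.43e-07) and 4.94 ± 0.60 (adjusted p = 4.36e-06). The enteroendocrine marker sum given above was lower in colon than in SI, and its part in the Rab3b values was not tested. Rab3c, another neuroendocrine form, was higher in SI at 1.40 ± 0.373 CPM against 0.576 ± 0.188 in WT, with a log2 fold change of -1.32 ± 0.25 (adjusted p = 2.98e-04) and ranges apart. Rab3a, the synaptic vesicle form, was at 8.01 ± 0.464 CPM in WT SI and 9.25 ± 0.686 in WT colon, a log2 difference of 0.17 ± 0.08 (adjusted p = 0.0781) that was not called. Rab37 (chromosome 11, 115091431 to 115162236), described on mast cell granules, ran from 15.8 to 23.5 with a median of 19.1 CPM in WT SI and from 5.28 to 12.2 with a median of 8.23 in WT colon without overlap. Its log2 fold change was -1.25 ± 0.16 (adjusted p = 7.95e-06) in WT and -0.83 ± 0.19 (adjusted p = 0.00174) in 9S/T-A, where the ranges overlapped and plain library totals gave -0.02 and no call.

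**Figure D4:**
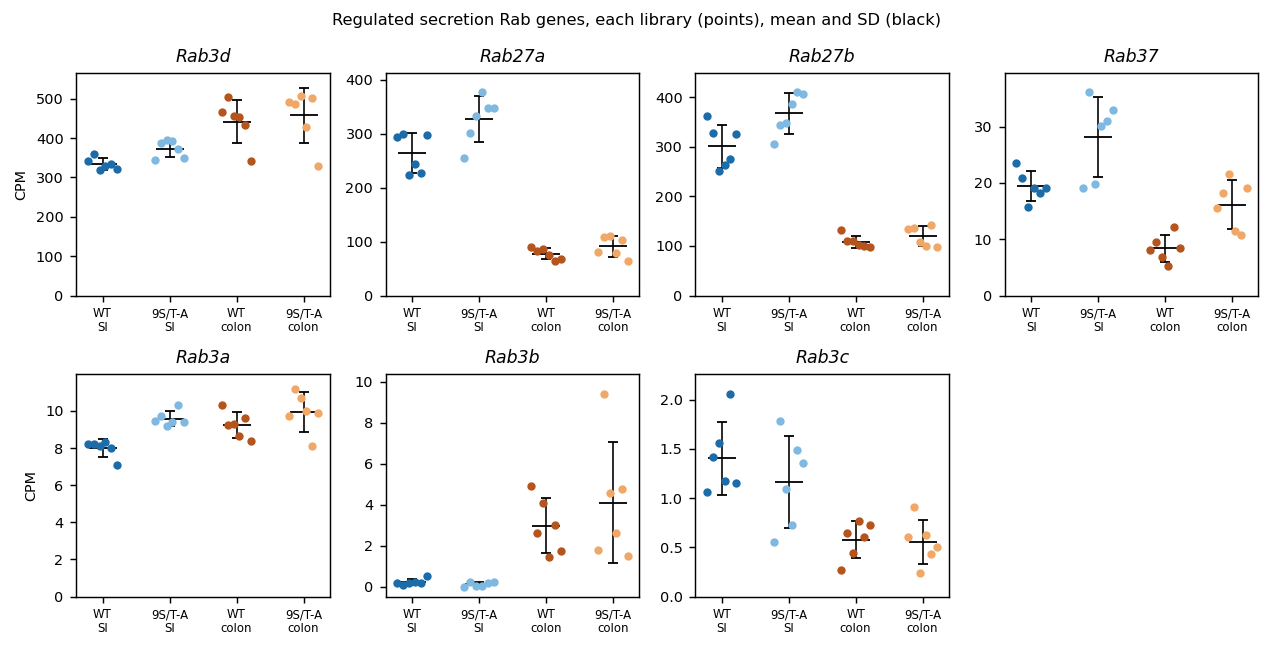
CPM of the 7 regulated secretion Rab genes in each of the 24 libraries (points, numbers 2 to 7 from left) with the mean and SD of each group in black, and a linear axis from 0 or just under it. Rab27a and Rab27b are lower in both colon groups, Rab3d is higher except in library 7, and Rab3b is near 0 in SI.

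Of the 6 genes of recycling and apical traffic, Rab25 was higher in colon and 4 were higher in SI in both genotypes, and Rab15, a recycling endosome Rab, was not called in either. Rab25 (chromosome 3, 88542029 to 88548300) ran from 93.1 to 116 with a median of 111 CPM in WT SI and from 154 to 221 with a median of 206 in WT colon, and from 97.8 to 134 with a median of 123 and 151 to 220.3 with a median of 206 in 9S/T-A. The groups were apart, with log2 fold changes of 0.84 ± 0.09 (adjusted p = 7.74e-07) and 0.70 ± 0.10 (adjusted p = 2.27e-05). Library 7 was the lowest of each of the 4 groups, and without it the log2 fold changes were 0.86 (adjusted p = 1.21e-08) and 0.72 (adjusted p = 3.91e-07). Its relative Rab11a (chromosome 9, 64715299 to 64737758), which serves the apical recycling endosome, ran from 74.5 to 97.0 with a median of 82.2 CPM in WT SI and from 55.9 to 67.2 with a median of 63.4 in WT colon. Rab11a in 9S/T-A ran from 82.9 to 100.4 with a median of 88.4 CPM in SI and from 56.5 to 73.5 with a median of 62.5 in colon. Here SI was the higher tissue, with no overlap in either genotype and log2 fold changes of -0.46 ± 0.08 (adjusted p = 1.04e-04) and -0.55 ± 0.08 (adjusted p = 3.54e-05), but plain library totals turned the sign (0.26 and 0.26). Rab17, an epithelial Rab of transcytosis, had 16.5 ± 3.20 CPM in WT SI and 10.3 ± 1.55 in WT colon, with overlapping ranges and a log2 fold change of -0.72 ± 0.14 (adjusted p = 2.45e-04). Rab11b and Rab35, which act in endosomal recycling, gave log2 fold changes of -0.35 and -0.32 in WT, and both turned sign under plain totals.

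Of the 13 ER and Golgi genes, 6 were higher in SI and 7 were not called in each genotype, and 0 were called higher in colon, where 0 of them had a positive log2 fold change at an unadjusted p under 0.05 in WT and DESeq2 called 0. Rab2a, at 167 ± 15.9 CPM in WT SI and 168 ± 22.3 in WT colon, gave a log2 fold change of -0.02 ± 0.10 (adjusted p = 0.865), and Rab1b, at 139.8 ± 10.4 and 155 ± 21.2 CPM, gave 0.12 ± 0.09 (adjusted p = 0.289). In 9S/T-A SI the levels were 185 ± 13.2 and 149.9 ± 13.2 CPM, and the log2 fold changes of colon against SI were -0.15 ± 0.11 (adjusted p = 0.252) for Rab2a and 0.02 ± 0.10 (adjusted p = 0.911) for Rab1b. Rab1a (chromosome 11, 20201432 to 20226856) ran from 291 to 372 with a median of 313 CPM in WT SI and from 196 to 286 with a median of 263 in WT colon, which did not overlap, with a log2 fold change of -0.38 ± 0.10 (adjusted p = 0.00376) that turned to 0.34 under plain library totals. Rab1a in 9S/T-A ran from 309 to 380.0 with a median of 355 CPM in SI and from 204 to 324 with a median of 297 in colon, where the ranges overlapped and the log2 fold change was -0.38 ± 0.11 (adjusted p = 0.00878), or 0.42 under plain totals. The widest differences were in 2 low-level genes. Rab30, a Golgi Rab (chromosome 7, 92741603 to 92837117), ran from 0.767 to 3.07 with a median of 1.98 CPM in WT SI and from 0.06 to 0.188 with a median of 0.149 in WT colon, a log2 fold change of -3.93 ± 0.34 (adjusted p = 8.05e-08). Rab30 in 9S/T-A ran from 2.27 to 5.79 with a median of 5.01 CPM in SI and from 0.0542 to 0.287 with a median of 0.0904 in colon, a log2 fold change of -5.28 ± 0.36 (adjusted p = 7.22e-09). Rab39b, an X-linked gene best known from neurons (chromosome X, 75572046 to 75578231), ran from 0.679 to 0.943 with a median of 0.840 CPM in WT SI and from 0.0145 to 0.141 with a median of 0.0629 in WT colon. Rab39b in 9S/T-A ran from 0.278 to 1.42 with a median of 0.854 CPM in SI and from 0 to 0.0369 with a median of 0 in colon. The tissues did not overlap for either gene, and for Rab39b the log2 fold changes were -3.56 ± 0.38 (adjusted p = 9.11e-07) in WT and -6.35 ± 0.63 (adjusted p = 4.37e-07) in 9S/T-A, where 4 of 6 colon libraries had no count and the group held 4 counts in all. Rab43, whose exon sequence largely recurs in another annotated gene, was also higher in SI (log2 fold change -0.67 in WT), and Rab6a and Rab19 less so (-0.20 and -0.26). With plain library totals Rab6a and Rab19 were called higher in colon in both genotypes, and Rab43 did not keep its call.

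Genes of the early endosome were mostly higher in SI and those of the late endosome higher in colon where they were called. Of 10 early endosome genes, 6 were higher in SI and 3 higher in colon in WT, and 6 and 1 in 9S/T-A. Rab31, a Rab of transport between the Golgi and endosomes (chromosome 17, 65651726 to 65772752), ran from 4.89 to 8.05 with a median of 6.41 CPM in WT SI and from 1.66 to 2.97 with a median of 2.25 in WT colon, which did not overlap. Rab31 in 9S/T-A ran from 5.53 to 11.2 with a median of 8.51 CPM in SI and from 1.98 to 5.99 with a median of 2.74 in colon. Its log2 fold change was -1.47 ± 0.17 (adjusted p = 1.65e-06) in WT and -1.42 ± 0.26 (adjusted p = 2.06e-04) in 9S/T-A, where colon library 3 lay within the SI range. Rab5c ran from 152 to 176 with a median of 169.7 CPM in WT SI and from 94.4 to 126 with a median of 112 in WT colon. Rab5c in 9S/T-A ran from 166 to 194 with a median of 185 CPM in SI and from 90.8 to 133 with a median of 121 in colon. The ranges were apart in both, and the log2 fold change was -0.60 ± 0.08 (adjusted p = 5.30e-06), with -0.66 ± 0.10 (adjusted p = 3.23e-05) in 9S/T-A, while plain totals gave 0.11 and 0.13. Rab4a, Rab5a, Rab14 and Rab21 gave log2 fold changes between -0.65 and -0.32 in WT. With plain library totals Rab5a, Rab14 and Rab21 were called higher in colon in both genotypes. Of the early endosome genes higher in SI, only Rab31 kept that call, so the direction for the others rests on the scaling. Rab20, a Rab of maturing phagosomes, was higher in colon in both genotypes, at 0.32 and 0.32 on the log2 scale.

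Of the 8 late endosome and lysosome genes, 3 were higher in colon and 5 were not called in each genotype. Rab32 (chromosome 10, 10545011 to 10558233) ran from 3.34 to 4.76 with a median of 3.58 CPM in WT SI and from 15.6 to 24.4 with a median of 20.3 in WT colon, and from 2.79 to 5.56 with a median of 3.78 and 13.7 to 21.1 with a median of 19.3 in 9S/T-A. The tissues did not overlap, with log2 fold changes of 2.30 ± 0.13 (adjusted p = 7.63e-10) and 2.22 ± 0.16 (adjusted p = 1.24e-08). Its paralog Rab38 (chromosome 7, 88430273 to 88491466) had 2 counts in all 6 WT SI libraries together and 1 in 9S/T-A SI, against 77 to 113 counts per library in WT colon and 53 to 92 in 9S/T-A colon. The ratio of the colon mean to the pooled SI level was 185 in WT, with a 95% exact Poisson interval of 51.2 to 1527, and 247 (44.3 to 9746) in 9S/T-A, where the interval covers the counting error of the SI counts alone. The leukocyte marker sum given above was higher in colon, where 1 of the 8 markers had a mean of 1 CPM or more, and the part of such cells in these values was not tested. Rab29, a Rab tied to the kinase LRRK2, was higher in colon by 0.77 and 0.58 on the log2 scale. Rab7, the late endosome Rab and the most abundant of these by CPM per kb in WT SI (63.0 ± 3.55), was not called, with log2 fold changes of -0.03 and -0.12.

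Among the 4 genes of delivery to the plasma membrane, Rab8a (chromosome 8, 72161200 to 72183904), which carries apical cargo, ran from 101.8 to 128 with a median of 122 CPM in WT SI and from 72.0 to 98.2 with a median of 93.5 in WT colon. Rab8a in 9S/T-A ran from 117 to 137 with a median of 136 CPM in SI and from 73.2 to 103 with a median of 92.8 in colon. The ranges were apart in both genotypes, and the log2 fold change was -0.42 ± 0.09 (adjusted p = 5.28e-04) in WT and -0.55 ± 0.08 (adjusted p = 4.17e-05) in 9S/T-A, though both were positive under plain totals (0.30 and 0.25). Rab13, a junction Rab, was higher in WT colon, with a log2 fold change of 0.26 ± 0.11 (adjusted p = 0.0406), and Rab8b and Rab10 were not called in either genotype. Of the 4 remaining genes, Rab23, a regulator of hedgehog signalling at the cilium, was higher in colon by 0.77 and 0.61. Rab40b, which joins a ubiquitin ligase through a SOCS box (chromosome 11, 121356125 to 121388251), ran from 0.0516 to 0.385 with a median of 0.137 CPM in WT SI and from 0.509 to 1.13 with a median of 0.651 in WT colon. Rab40b in 9S/T-A ran from 0 to 0.236 with a median of 0.109 CPM in SI and from 0.244 to 0.811 with a median of 0.392 in colon. The tissues did not overlap, and the log2 fold changes were 2.14 ± 0.38 (adjusted p = 1.45e-04) and 1.88 ± 0.54 (adjusted p = 0.00726). Rab28 and Rab40c differed by -0.15 and -0.03 in WT, where they were not called, and by -0.21 and -0.24 in 9S/T-A, where they were. With plain library totals both were called higher in colon in 9S/T-A.

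The comparison of genotypes asked whether cells with the phosphomutant ATOH1 differ in Rab expression from cells with the wild-type protein. In SI, 0 of the 47 Rab genes tested passed the threshold in edgeR, beside 1.94% of 16236 genes. An unadjusted p under 0.05 was found for 11 of the 47, beside 15.7% of all genes, and DESeq2 called 4, beside 4.8%. In colon, 1 of 50 was called, Rab2b, beside 0.318% of 16997 genes, and 5 had an unadjusted p under 0.05, beside 8.81% of all genes. DESeq2 called 3 of the 50, beside 1.49% of all genes. The 5 genes that did not pass the low-count filter in SI were Rab34, Rab36, Rab38, Rab3b and Rab40b, and in colon they were Rab30 and Rab39b. The median log2 fold change of the Rab genes in SI was 0.11 against 0.00 for all genes, and 0.00 against -0.11 with plain library totals. In colon it was 0.02 against 0.00. Most genes moved little, since 3 of 47 in SI and 4 of 50 in colon differed by more than 0.5 on the log2 scale. The groups did not overlap for Rab3a in SI and for Rab2b in colon, where 2.07% and 0.906% of all genes tested had groups apart. The ranges of the sums of the 7 marker lists of epithelial cells given above overlapped between the genotypes in both tissues, though medians differed. From WT to 9S/T-A the SI median went from 322090 to 453540 CPM for goblet, 86380 to 63463 for Paneth and 95.2 to 46.5 for tuft markers. In colon these medians went from 47468 to 63995, 242 to 659 and 23.9 to 15.5 CPM. The Paneth list includes Ang4, a protein of Paneth and goblet cells, with 124405 counts over the WT and 267479 over the 9S/T-A colon libraries. The colon values of that list therefore do not stand for Paneth cells alone. The part of these cell types in the Rab values was not tested.

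Rab2b, the less abundant paralog of Rab2a, was lower in 9S/T-A colon. The gene lies on chromosome 14, 52261759 to 52279545, minus strand (GRCm38). It ran from 4.25 to 7.51 with a median of 5.65 CPM in WT colon and from 1.65 to 3.28 with a median of 2.04 in 9S/T-A colon, and every mutant library lay below every WT library. The log2 fold change was -1.37 ± 0.20 (adjusted p = 0.00581). The gene was called in all 22 alternatives, with adjusted p up to 0.0369. These count the same fit read at the looser threshold of 0.1, which had to keep the call. In SI, Rab2b ran from 2.67 to 6.20 with a median of 4.15 CPM in WT and from 1.69 to 3.22 with a median of 2.32 in 9S/T-A. These ranges overlapped at the lower end of the WT values, and the log2 fold change of -0.88 ± 0.24 (adjusted p = 0.0828) was not called. The call was made in 4 of 22 alternatives, over which the adjusted p ran from 0.00880 to 0.196. Among the 4 were the fit without WT SI library 2 and the looser threshold of 0.1 on the same fit. Rab2a had 168 ± 22.3 CPM in WT colon and 170.2 ± 28.8 in 9S/T-A colon, a log2 difference of 0.04 ± 0.11 (adjusted p = 1.0). Rab2b stood at 1.36 ± 0.303 CPM per kb in WT colon beside 78.8 ± 10.4 for Rab2a.

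The genes around Rab2b were examined because reads of overlapping genes can mix. Tox4, on the opposite strand, shares 195 exon bases with Rab2b and showed log2 fold changes of 0.08 in SI and 0.17 in colon, neither called. The unclassified transcript Gm43766, also on the opposite strand, overlaps 59.3% of the Rab2b exon bases and had a mean of 6.17 counts, and counting used strand. Of the 17 other genes tested within 500 kb on either side, 3 were called in SI and 0 in colon by edgeR, beside 1.94% and 0.318% of all genes. In each tissue 4 had an unadjusted p under 0.05, beside 15.7% and 8.81% of all genes. DESeq2 values are not given for them. In SI, Ear6, a ribonuclease of the eosinophil family, had 186 counts over the 6 WT libraries and 0 over the 6 9S/T-A libraries. Ang4, an antimicrobial protein of Paneth and goblet cells, and Supt16, a histone chaperone subunit, had log2 fold changes of -1.11 and -0.34 there, and 1.013 and -0.19 in colon. The lowest log2 fold change of these genes in colon was that of Rpgrip1, at -1.53 ± 0.47 (edgeR adjusted p = 0.296), not called. It had 1099 counts in WT colon and 407 in 9S/T-A colon, and a log2 fold change of 0.05 in SI. Whether these values and that of Rab2b are connected was not tested.

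Rab37, Rab30 and Rab38 did not pass the threshold in the edgeR test of either tissue but passed it in at least 1 alternative fit. They are not the only such genes. The SI fit without library 2 of every group called 3 Rab genes, Rab37 among them, and the others are not named here. Rab37 ran from 5.28 to 12.2 with a median of 8.23 CPM in WT colon and from 10.8 to 21.7 with a median of 16.9 in 9S/T-A colon, where 2 of the 6 mutant libraries lay within the WT range. The log2 fold change was 0.96 ± 0.21 (adjusted p = 0.0703). DESeq2 gave an adjusted p of 6.28e-04, and 7 of 22 alternatives called it. Among the 7 were those without 9S/T-A library 6 and without WT library 6, and the looser threshold of 0.1 on the same fit. In SI the same gene ran from 15.8 to 23.5 with a median of 19.1 CPM in WT and from 19.1 to 36.1 with a median of 30.5 in 9S/T-A, again with 2 mutant libraries inside the WT range, and the log2 fold change was 0.53 ± 0.15 (adjusted p = 0.103). There 3 of 22 alternatives called it, with adjusted p from 0.0203 to 0.223 over the 22. They were DESeq2 (adjusted p = 0.0317) and the fits without 9S/T-A library 2 and without library 2 of every group. Rab30 ran from 0.767 to 3.07 with a median of 1.98 CPM in WT SI and from 2.27 to 5.79 with a median of 5.01 in 9S/T-A SI. Of the 6 mutant libraries, 5 lay above all WT libraries and 1 inside their range, and the log2 fold change was 1.16 ± 0.29 (adjusted p = 0.0570). The call was made by 7 of 22 alternatives, with adjusted p from 0.00305 to 0.123 over the 22. Among the 7 were those without 9S/T-A library 6 and without WT library 7, and the looser threshold of 0.1 on the same fit. In colon Rab30 was below every SI library in both genotypes, at 0.06 to 0.188 and 0.0542 to 0.287 CPM. Rab38 ran from 1.12 to 1.72 with a median of 1.52 CPM in WT colon and from 0.719 to 1.38 with a median of 0.936 in 9S/T-A colon, and 1 mutant library lay within the WT range. Its log2 fold change was -0.63 ± 0.17 (adjusted p = 0.189), with 2 of 22 alternatives calling it.

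**Figure D5:**
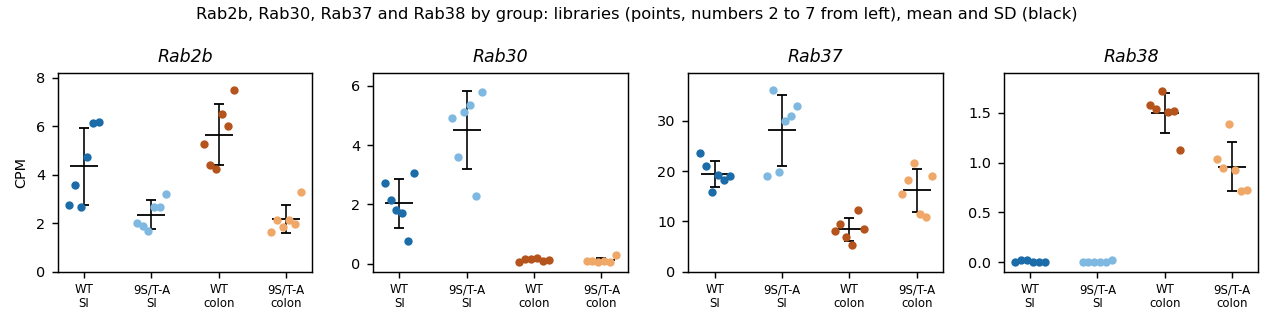
CPM of Rab2b, Rab30, Rab37 and Rab38 in each of the 24 libraries (points, numbers 2 to 7 from left in each group), with the mean and SD in black on a linear axis. Every 9S/T-A colon library is below every WT colon library for Rab2b, while the genotypes overlap in the other panels and in Rab2b of the SI.

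The granule and apical Rabs named for their role were not called between genotypes. In SI, Rab3a ran from 7.09 to 8.35 with a median of 8.18 CPM in WT and from 9.19 to 10.3 with a median of 9.45 in 9S/T-A, which did not overlap, yet the log2 fold change of 0.26 ± 0.08 (adjusted p = 0.114) was not called, and DESeq2 alone among 22 alternatives called it (adjusted p = 0.0170). Rab27a, with the SI levels given above, differed by 0.31 ± 0.11 (adjusted p = 0.189) on the log2 scale in SI and 0.24 ± 0.13 (adjusted p = 0.631) in colon. Rab27b gave 0.29 ± 0.11 (adjusted p = 0.197) and 0.16 ± 0.11 (adjusted p = 0.801), and Rab3d 0.15 ± 0.06 (adjusted p = 0.264) and 0.07 ± 0.11 (adjusted p = 0.994). Rab25 gave 0.14 ± 0.08 (adjusted p = 0.408) and 0.03 ± 0.09 (adjusted p = 1.0), Rab11a 0.11 ± 0.08 (adjusted p = 0.542) and 0.04 ± 0.07 (adjusted p = 1.0), and Rab8a 0.15 ± 0.07 (adjusted p = 0.359) and 0.03 ± 0.08 (adjusted p = 1.0). None of these 6 genes passed in the main edgeR test or in DESeq2 in either tissue.

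The test of the product of genotype and tissue, which asks whether the genotype difference itself differed between SI and colon, called 0 of 52 Rab genes beside 0.412% of 17953 genes, with 4 Rab genes at an unadjusted p under 0.05, beside 9.69% of all genes, and 0 called by DESeq2, beside 1.43%. For Rab2b the product was -0.50 ± 0.31 (adjusted p = 0.687) on the log2 scale, so the larger fall in colon was not shown to differ from that in SI. Rab39b had -2.79 ± 0.82 (adjusted p = 0.156) and Rab30 -1.35 ± 0.52 (adjusted p = 0.343), both on few counts in colon. Rab37 had 0.41 ± 0.27 (adjusted p = 0.713).

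Proteins that load, switch and read out the Rabs were taken from a list of 147 genes, of which 142 were tested between tissues. In WT, 40 were higher in colon and 54 higher in SI (66.2% called), and in 9S/T-A 39 and 55 (66.2%), near the share of all genes given above. Of 13 granule effectors tested, 6 were higher in colon and 6 higher in SI in WT. Sytl5, a synaptotagmin-like protein that binds RAB27, had 11.8 ± 3.59 CPM in WT SI and 0.671 ± 0.362 in WT colon (SD, n = 6), a log2 fold change of -4.16 ± 0.30 (adjusted p = 8.30e-09), in the direction of Rab27a and Rab27b. Rims4, a short member of the RIM family, was higher in colon by 4.60 ± 0.24 (adjusted p = 1.87e-10). Of 23 endosome and recycling effectors, 4 were higher in colon and 11 higher in SI, among them Rab11fip5, a Rab11 effector, at 2.48 and Ehbp1l1, a Rab8 effector, at -1.56 on the log2 scale. Of 19 Golgi and exocyst effectors, 5 and 6 were called, with the Rab8 effector Optn at -2.52 and the golgin Gcc2 at -0.87. Of 38 GTPase-activating proteins, 10 and 15 were called, with Tbc1d9 at -3.26 and Tbc1d10c at -2.68. Of 41 exchange factors, 13 and 15 were called, with Rin3 at -2.70 and Dennd2c at 1.97. The 8 genes of prenylation and membrane extraction had 2 higher and 1 lower in colon, with Rabac1 at 0.72 and Rabggtb, a subunit of the enzyme that attaches the Rab lipid anchor, at 0.65.

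Between genotypes, 1 of 142 genes of this list was called in SI by edgeR, with 28 at an unadjusted p under 0.05 and 5 called by DESeq2, beside 1.94%, 15.7% and 4.8% of all genes. In colon 0 of 140 were called by edgeR, with 17 at an unadjusted p under 0.05 and 1 called by DESeq2, beside 0.318%, 8.81% and 1.49%. In the test of the product 0 of 142 were called, with 12 and 1, beside 0.412%, 9.69% and 1.43%. The gene called in SI was Rin3, an exchange factor for Rab5 family proteins including RAB31, which ran from 29.8 to 45.9 CPM in WT SI and from 38.9 to 71.1 in 9S/T-A SI. The log2 fold change was 0.69 ± 0.15 (adjusted p = 0.0286). Of 22 alternatives, with adjusted p from 0.00123 to 0.0768, 14 kept the call, the looser threshold of 0.1 on the same fit among them. The call was lost when any of 9S/T-A libraries 4 to 7 or WT libraries 4 to 6 was left out, or library 7 of every group. RIN3's target Rab31 had a log2 fold change of 0.39 ± 0.16 (adjusted p = 0.261) in SI.

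The minimum of 10 mean counts left out 7 Rab genes, namely Rab42 (8.67), Rab26 (5.21), Rab44 (3.62), Rab33a (2.58), Rab9b (1.04), Rab39 (0.330) and Rab7b (0.120). Rab34 (10.7) and Rab36 (17.7) were the members just inside it. Rab26, a Rab of zymogen granules, had between 0 and 14 counts in a library. For 7 of the 52 genes more than 5% of the 50-base pieces of their exons occur in another gene, so their counts are uncertain. Rab4b shares 58.1% of its pieces, largely with the readthrough gene Gm21983 on the same strand, which was listed at 0 counts in every library, and reads in exons of both genes were assigned to neither. Rab43 shares 74.5% with Gm45140, a gene of the newer annotation that is not in the count tables used here. Rab7, Rab5b, Rab11b and Rab9 share 11.2%, 9.8%, 9.47% and 6.2% of theirs, and Rab8b 5.37%.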

How the data were processed

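RNA-seq reads were aligned by the authors to GRCm38.p3 with TopHat2 2.1.1. Per the file headers, featureCounts 1.5.2 counted them per gene over exons, on the reverse strand of a stranded library, and the authors deposited the raw counts of 1 library per file. Reads in exons of several genes on 1 strand were not counted. Symbols came from GENCODE M21 (44671 of 45513 identifiers) and promoters from RefSeq. Coordinates are those of the count files. Tests used edgeR 4.0.16 under R 4.3.3 (quasi-likelihood, TMM, default filter by group), with only the groups compared in each fit and all 4 in the product. DESeq2 1.42.0, other size factors and filters, plain library totals, sex, the replicate number and left-out libraries were alternatives. The code was tested on simulated data. The 60 library pairs of the same group included 0 with identical counts. The labels do not tie libraries to mice, so p-values measure the spread between these libraries. Members and gene lists were chosen with earlier results of these data known. Named Rab genes were those called between genotypes, the 5 most changed in each direction between tissues in WT, the 5 with the highest CPM per kb in each group, and the granule, Rab2 and apical genes listed in advance, and named regulators were the 2 most changed of each class.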

Additional observations from a re-analysis of the deposited data

Results flagged for a closer look

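Of 80 group levels checked (the 20 Rab genes named by the rule in 4 groups of 6), 15 held a library that lay far from the others of its group by Dixon's criterion, while chance flags about 1 in 20. Library 7 was the outlying one in 11 of the 15.

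In colon, library 7 was low for Rab1b, at 115 CPM in WT and 110.1 in 9S/T-A, and for Rab25, at 154 and 151 CPM. Rab38 was low in the same WT colon library, at 1.12 CPM. Library 7 of 9S/T-A colon was high for Rab2b, at 3.28 CPM, and for Rab30, at 0.287 CPM, and the Rab2b difference between genotypes was called with and without it. In WT SI, library 7 was low for Rab25, at 93.1 CPM, and for Rab3a, at 7.09, and high for Rab3b, at 0.511 CPM. Library 7 of 9S/T-A SI held the single Rab38 count of its group, 0.0196 CPM. Without library 7 in every group, 32 Rab genes were called between tissues in each genotype, 0 between genotypes in SI and 1 in colon.

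The other 4 were Rab27b, high in WT colon library 2 at 132 CPM, Rab31, high in 9S/T-A colon library 3 at 5.99 CPM, Rab39b, high in 9S/T-A colon library 2 at 0.0369 CPM, and Rab40b, high in WT SI library 4 at 0.385 CPM.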

How the results depend on the processing

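In SI, where 0 Rab genes passed between genotypes, 2 did at an adjusted p under 0.1, 4 with DESeq2, 1 with no filter on low counts, 1 with sex as a covariate, 3 without replicate 2 in every group, and 0 to 1 when a single library was left out. In colon, where 1 passed, 2 did at an adjusted p under 0.1, 3 with DESeq2, 2 with no filter, 2 with sex as a covariate, and 1 to 2 when a single library was left out. The cause of these changes was not tested. With the replicate block, 2 Rab genes were called in SI, 3 in colon, 35 and 34 between tissues in WT and 9S/T-A, and 0 in the product. The calls gained between tissues were Rab2b (adjusted p = 0.0156) and Rab9 (0.0304), higher in WT colon, and Rab36 (0.0292), higher in colon, and Rab24 (2.03e-04), higher in SI, of 9S/T-A. Between genotypes they were Rab2b and Rab30 in SI and Rab37 and Rab38 in colon, and no call was lost with the block. Same-numbered libraries correlated at -0.009 to 0.497 between the SI groups and 0.017 to 0.743 between the colon groups, with 3 and 5 of 6 pairs over 0.1, and 4 and 8 of 12 libraries correlated best with their own number. Between tissues the pairs gave 0.083 to 0.456 in WT and 0.093 to 0.545 in 9S/T-A, with 5 of 6 over 0.1 in each, and 9 and 10 of 12 libraries correlated best with their own number. Since some pairs were under 0.1 in each comparison and the labels tie no libraries to a mouse, the numbers were not read as pairing. The correlations are still a hint in the data of a link between same-numbered libraries, which the main fit leaves out. Between genotypes such a link cannot be a shared mouse. Same-numbered libraries also have the same sex, and the source of the link was not tested. Plain library totals reversed the colon-to-SI direction of Rab11a (0.26 in WT and 0.26 in 9S/T-A), Rab1a (0.34 and 0.42), Rab5c (0.11 and 0.13) and Rab8a (0.30 and 0.25). They called 47 and 43 Rab genes between tissues, beside 14144 of 16979 genes in WT and 14199 of 16938 in 9S/T-A. Of the other values of single genes, 789 kept direction and side of the threshold, 20 passed it only in the alternative and 19 only as reported. Precision for Rab38, Rab3b, Rab30, Rab39b and Rab40b is limited by depth, since they held few counts in 1 tissue.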

Other observations

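Genes with a Rab name that code for no protein were left out of the comparisons. Their mean raw counts over the 24 libraries were 689.5 for the processed pseudogene Rab11b-ps2, 619 for Rab10os, an antisense RNA at the Rab10 locus, 47.0 for Rab26os and 46.6 for Rab9b-ps1. Rab26os and Rab9b-ps1 thus held more counts than the protein-coding genes they are named for, Rab26 at 5.21 and Rab9b at 1.04. Rab9b-ps1 shares 50-base pieces with Rab9, and Rab11b-ps2 with Rab11b, so the counts of these pseudogenes are uncertain.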
